A study of Mus musculus with 240 samples.

Results

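Hypoxia and glycolysis genes were followed in mouse oligodendrocyte precursor cells (OPCs), the dividing glial cells of the adult brain, from the first days after loss of Trp53 and Nf1 to tumours. The set holds 35 genes given as a list of symbols, drawn up with earlier results of these data known. All 35 were found among the 34623 genes of the deposited count table. They comprise 4 regulators of the hypoxia response, 10 hypoxia-induced targets, 4 transporters, 13 enzymes of glycolysis and its control, and 4 genes that set the fate of pyruvate.

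Cells were taken by laser capture from frozen brain sections. Bulk samples came from 37 mice. CKO animals carried the genotype Trp53-/- Nf1-/- and were taken at 12 days (7 animals) and 90 days (7 animals) after the start of tamoxifen (dpi). At 150 dpi the samples of that genotype were brain tumours (7 animals). Wild-type (WT) animals were taken at 12 dpi (5 animals), 90 dpi (5 animals) and 150 dpi (6 animals). The titles of both genotypes carry a tdTomato-positive tag, and the driver of recombination is not given in the sources used here. Small samples came from CKO mice at 12 and 90 dpi: 112 libraries of 10 cells and 80 pool-and-split controls, in which pooled material was divided again so that its spread is technical. No small library came from a tumour or from a WT mouse, and tumours were compared with non-tumour tissue of another age or genotype.

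The hypoxia-inducible factors pair an oxygen-sensitive alpha subunit, Hif1a or Epas1 (HIF-2 alpha), with a constant partner. Egln prolyl hydroxylases mark the alpha subunits for destruction while oxygen is present, so the factors are controlled mainly as proteins and less through the level of their mRNA. Their targets include Vegfa for vessel growth, glucose and lactate transporters, most glycolytic enzymes, and Ldha and Pdk1, which turn pyruvate away from the mitochondria.

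Bulk libraries had median totals between 3.466 M and 13.69 M counts (M, mega) in the 6 groups. The shallowest, WT_21167 at 90 dpi, held 0.0937 M, and Adm, Ankrd37, Bnip3, Car9, Hk2, P4ha2, Pfkm and Slc16a3 were at 0 in it. CKO_20647 at 90 dpi also stood apart, with the highest summed level of 12 neuron markers (16482 CPM, counts per M of the scaled library) and of Aldoa and Tpi1 in its group. All 16 OPC markers were found in every bulk group. The WT libraries at 150 dpi nonetheless held more summed neuron marker RNA (8395 to 11639 CPM) than OPC marker RNA (3094 to 6059 CPM). In tumours the neuron sum was 309 to 1567 CPM.

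Promoter sequences show what the members share apart from their levels. The core letters of the hypoxia response element, ACGTG, were searched on both strands in the 250 bases before each RefSeq start site (build GRCm38.p6). Windows were found for 31 of the 35 members, 42 windows in all. There were none for Bnip3l, Ndrg1, Epas1 and Slc2a3. The letters occurred before at least 1 start site in 21 of these 31 members (67.7%), against 18.5% of 27025 genes. By window, 57.1% of the members' windows and 16.6% of all 32851 windows held them. The related letters GCGTG occurred in 50% of the members' windows and 28.2% of all. The 5 members that were higher in tumours than in WT tissue all had ACGTG in a window, as did 8 of 17 that were lower and 8 of 9 that were not called. A match is a string of letters and not a bound site. The members were listed as hypoxia and glycolysis genes, so an excess of these letters is not independent of the choice of list. The genes compared with were not matched for base content or level. The stretches below are chosen from members with a change in tumours, the first 4 higher and the last 3 lower, and capitals mark ACGTG or GCGTG on either strand (CACGT and CACGC on the strand printed). None overlaps an annotated exon.
Hk2 (chr6:82774482-82774581, minus strand): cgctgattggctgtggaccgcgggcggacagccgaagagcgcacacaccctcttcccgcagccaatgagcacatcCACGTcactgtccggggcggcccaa
Pfkfb3 (chr2:11502118-11502217, minus strand): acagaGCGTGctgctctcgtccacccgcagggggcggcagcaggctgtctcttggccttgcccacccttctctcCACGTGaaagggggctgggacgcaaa
Ldha (chr7:46845695-46845794, plus strand): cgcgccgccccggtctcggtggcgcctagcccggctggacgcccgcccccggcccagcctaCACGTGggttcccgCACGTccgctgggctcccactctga
Slc16a1 (chr3:104638455-104638554, plus strand): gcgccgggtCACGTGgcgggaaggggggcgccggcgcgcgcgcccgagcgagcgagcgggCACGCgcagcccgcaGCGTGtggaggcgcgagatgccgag
Egln3 (chr12:54204025-54204124, minus strand): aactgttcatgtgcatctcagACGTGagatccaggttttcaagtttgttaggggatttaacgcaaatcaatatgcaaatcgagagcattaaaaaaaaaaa
Aldoa (chr7:126799356-126799455, minus strand): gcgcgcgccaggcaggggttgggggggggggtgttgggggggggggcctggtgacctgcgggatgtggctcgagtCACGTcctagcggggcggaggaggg
Pgam1 (chr19:41911708-41911807, plus strand): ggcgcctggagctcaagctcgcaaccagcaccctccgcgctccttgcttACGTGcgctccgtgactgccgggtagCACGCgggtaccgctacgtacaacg

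In tumours at 150 dpi, glycolysis and hypoxia genes changed in both directions, and more of them fell than rose against WT tissue of the same time. Of 34 members with enough counts for the test, 20 were lower (58.8%, against 21.9% of all 16349 genes tested) and 5 were higher (14.7%, against 24.3% of all genes). A gene was called at a Benjamini-Hochberg adjusted p under 0.05 in edgeR's quasi-likelihood test over all genes. The median log2 change was -0.55 over the 34 members and 0.06 over all genes. In 10 members (29.4%) the tumours and the WT animals did not overlap, against 15.7% of all genes. With another scaling of the libraries (RLE factors) the median of all genes moved up by 0.15, 14 members were lower and 5 higher, and the share of higher genes among all calls went from 52.6% to 62.1%. In bulk samples, fewer cells of a type and less RNA per cell cannot be told apart.

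Markers of other cells also changed in this comparison, where 21.9% of all genes fell and 24.3% rose. Of 12 neuron markers 10 fell (83.3%, median log2 change -3.28). Of 14 microglia and macrophage markers 12 rose (85.7%), from 175 to 251 CPM summed in WT to 391 to 1824 CPM in tumours. Of 12 oligodendrocyte markers 7 fell (58.3%) and 1 rose (8.33%). Of 12 astrocyte markers 5 fell and 5 rose (41.7% each), and of 7 pericyte markers 4 fell (57.1%). Of 10 endothelial markers 2 fell (20%), near the share of all genes. Of 16 OPC markers 13 rose (81.2%), to 5737 to 16110 CPM. No red blood cell marker was called. None of the 12 neuron markers was at 0 in the tumours, and the part of these cells in the members' changes was not tested.

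**Figure D1:**
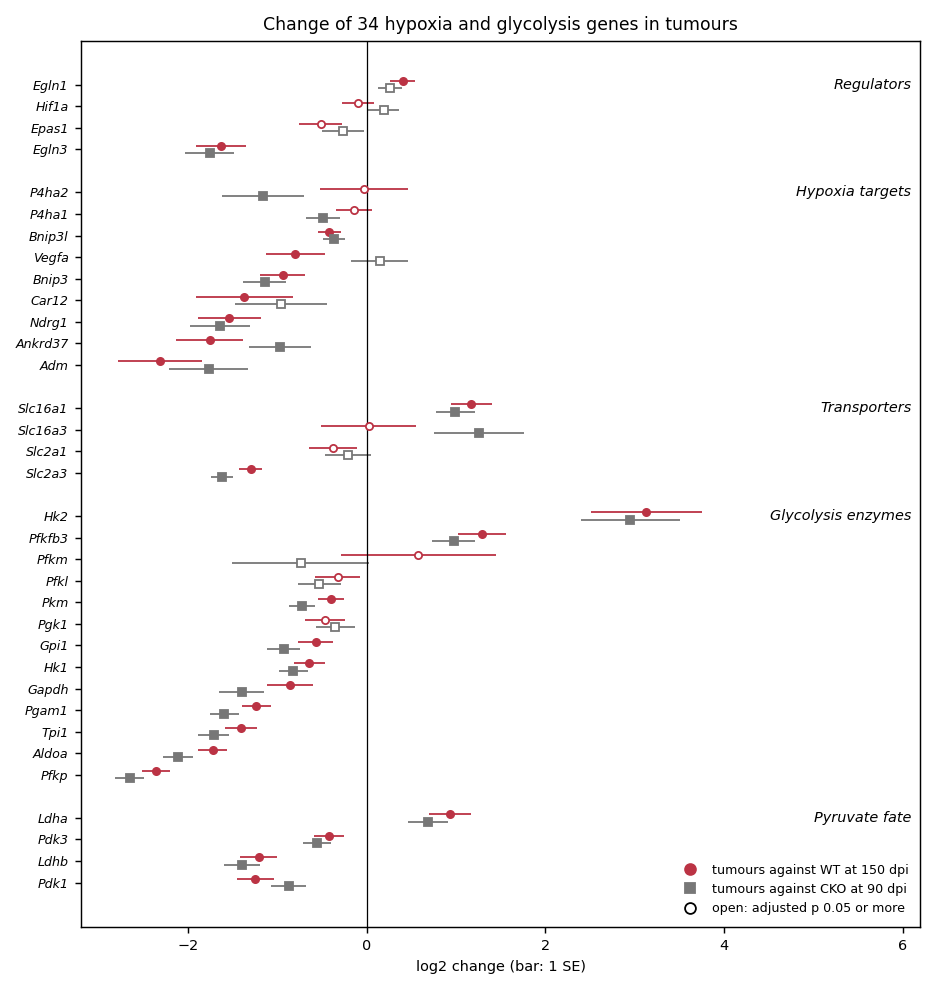
Log2 change of the 34 tested members (rows, grouped by role) in tumours against WT at 150 dpi (red circles) and against CKO at 90 dpi (grey squares), with 1 SE as bars and open symbols where the adjusted p was 0.05 or more. Hk2 has the largest rise (3.13 against WT) and Pfkp the largest fall (-2.36 against WT) of the members.

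Of the regulators, the factors themselves were not called in tumours while both hydroxylases were, in opposite directions. Hif1a, the alpha subunit of HIF-1 (chr12:73901375-73947530), ranged over 93.9, 170 and 198 CPM in tumours (lowest, median and highest of 7) and 117, 141 and 265 CPM in WT (of 6). The ranges overlapped, and the log2 difference was -0.10 (95% interval -0.46 to 0.26, adjusted p = 0.70). Its sign turned with RLE scaling (0.05) and with DESeq2 (0.05). An annotated gene on the same strand and an antisense gene overlap Hif1a, and the strand setting of the counting is not given in the sources used here.

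Epas1, the alpha subunit of HIF-2 (chr17:86753907-86833410), ranged over 58.9, 135 and 287 CPM in tumours and 173, 213 and 250 CPM in WT. The tumours lay on both sides of the WT range: Tumor_21349, Tumor_16839 and Tumor_16840 had 58.9, 69.8 and 81.4 CPM, and Tumor_21256 had 287 CPM. The log2 difference was -0.52 ± 0.24 (SE) and was not called (adjusted p = 0.0728). It was called without Tumor_21256 (-0.74, adjusted p = 0.00662) and without Tumor_16844 (-0.64, adjusted p = 0.028). The tumours with the lowest Epas1 had Hif1a at 170, 198 and 189 CPM.

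Egln1, the main oxygen-sensing hydroxylase of most tissues, ranged over 64.7, 89 and 124 CPM in tumours and 62.5, 67.4 and 87.2 CPM in WT. The ranges overlapped and the rise was 0.40 ± 0.14 (adjusted p = 0.0171), lost when only the compared groups were fitted (0.0785) and without the filter on low counts (0.0502). Egln3, a hydroxylase that is itself hypoxia-induced, ranged over 1.97, 8.31 and 12.4 CPM in tumours and 18.9, 25.8 and 33.4 CPM in WT. Every tumour was below every WT animal, and the fall was -1.64 ± 0.28 (adjusted p = 9.5e-06).

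Of the 10 hypoxia-induced targets 9 were tested, of which 7 fell (77.8%, against 21.9% of all genes) and none rose. Their median was -0.94. Adm, a peptide that widens vessels, ranged over 0.646, 0.943 and 5.83 CPM in tumours and 3.67, 9.39 and 12.5 CPM in WT. All tumours but Tumor_21349 were below the WT range, and the fall was -2.32 ± 0.47 (adjusted p = 0.000103). Ankrd37, a short ankyrin-repeat protein, ranged over 0.431, 3.44 and 4.98 CPM in tumours and 4.91, 11.1 and 15.3 CPM in WT, and fell by 1.76 ± 0.37 on the log2 scale (adjusted p = 0.000167). The highest tumour and the lowest WT animal overlapped. Ankrd37 overlaps Lrp2bp on the opposite strand, so reads of these genes may not be separable.

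Ndrg1, a stress-responsive protein also abundant in myelinating cells, ranged over 2.69, 16.5 and 38.2 CPM in tumours and 28.3, 38.5 and 62.4 CPM in WT. The highest tumour, Tumor_16713, lay within the WT range, and the fall was -1.54 ± 0.35 (adjusted p = 0.000438). Car12, a membrane carbonic anhydrase that acts on the pH outside the cell, showed the widest spread between tumours. It was at 64.2 CPM in Tumor_16713 and at 0.877 to 6.01 CPM in the other 6 tumours, against 23.7, 30 and 36.3 CPM in WT. The fall over all 7 tumours was -1.37 ± 0.55 (adjusted p = 0.0383). It was -2.93 without Tumor_16713. The call was lost when any of 10 other animals was left out, and with DESeq2 (0.0552) or RLE scaling (0.0896).

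Vegfa, the main vessel growth factor (chr17:46016993-46032369), ranged over 16.9, 26.3 and 98.3 CPM in tumours and 44.1, 68.7 and 172 CPM in WT. The ranges overlapped and 4 tumours lay below every WT animal. The fall of -0.80 ± 0.33 (adjusted p = 0.044) depended on WT_21592, the highest WT animal: without it the difference was -0.45 (adjusted p = 0.255). The call was lost when any of 20 animals was left out, with DESeq2 (0.106), with RLE scaling (0.119) and with the compared groups alone (0.254).

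Bnip3 and Bnip3l, which mark mitochondria for removal, both fell. Bnip3 was at 11.3, 29.5 and 46.7 CPM in tumours and 37, 56.2 and 67.5 CPM in WT (log2 change -0.94, adjusted p = 0.0019). Bnip3l was at 94.4, 124 and 162 CPM against 143, 159 and 190 CPM (-0.42, adjusted p = 0.00578), a call lost with RLE scaling (0.0744). P4ha1 and P4ha2, catalytic subunits of the collagen prolyl hydroxylase, were not called (-0.15 and -0.04), and their signs turned with RLE scaling.

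Car9, a carbonic anhydrase widely used as a marker of hypoxic tumour regions, was the member that did not pass the filter. None of the 6 WT animals at 150 dpi had a count of it. The 7 tumours had 0 to 13 counts, or 0 to 0.367 CPM, and 6 of the 7 had at least 1 count. In WT at 12 dpi the highest animal had 0.608 CPM, above every tumour. Total counts per animal were 2.317 M to 14.78 M in WT at 150 dpi and 4.906 M to 31.34 M in tumours. The part of this depth in the counts of Car9 was not tested. No fold change was computed.

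Of the 4 transporters, 1 rose and 1 fell (25% each, near the 24.3% and 21.9% of all genes). Slc16a1, the lactate carrier MCT1, ranged over 44.4, 73.6 and 107 CPM in tumours and 22.4, 35 and 39.8 CPM in WT. Every tumour was above every WT animal, and the rise was 1.17 ± 0.23 (adjusted p = 5.3e-05). Slc2a3, the glucose carrier GLUT3 that is typical of neurons, ranged over 47.3, 58 and 81.5 CPM in tumours and 137, 148 and 166 CPM in WT. The groups did not overlap and the fall was -1.30 ± 0.13 (adjusted p = 1.5e-10). Slc2a1, the glucose carrier GLUT1 of vessels and glia, was at 28.4, 71.6 and 130 CPM against 57.8, 98.9 and 138 CPM (-0.38, interval -0.91 to 0.14). Slc16a3, the lactate exporter MCT4, was at 0.645 to 3.95 CPM in tumours and 0.255 to 3 CPM in WT, with a difference of 0.02 (interval -1.02 to 1.06) that changed sign when any of 7 animals was left out.

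Of the 13 enzymes, 8 fell (61.5%, against 21.9% of all genes) and 2 rose (15.4%, against 24.3%). Their summed level was 1341, 1588 and 2285 CPM in tumours (lowest, median and highest) and 2387, 3658 and 4184 CPM in WT, so the ranges did not overlap. Hk2, the inducible hexokinase that takes the place of Hk1 in many tumours (chr6:82725025-82774454), ranged over 2.56, 10 and 16.2 CPM in tumours and 0.284, 0.574 and 2.32 CPM in WT. All tumours were above all WT animals, and the rise was 3.13 ± 0.62 on the log2 scale (8.75-fold, adjusted p = 7.8e-05). Hk1, the hexokinase of normal brain, was at 24.5, 40.4 and 52.8 CPM against 49.9, 62.7 and 71.2 CPM and fell (-0.64, adjusted p = 0.00188).

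Phosphofructokinase, the committed step of glycolysis, has 3 subunit genes. Pfkp, the platelet-type subunit (chr13:6579768-6648777), ranged over 55.1, 97.2 and 107 CPM in tumours and 383, 472 and 549 CPM in WT. The lowest WT animal was more than 3-fold above the highest tumour, and the fall was -2.36 ± 0.16 (5.13-fold, adjusted p = 9.9e-15). Pfkl, the liver-type subunit, was at 10.8, 29.3 and 56.5 CPM against 25.8, 36.4 and 54.9 CPM and was not called (-0.33, adjusted p = 0.293). Pfkm, the muscle-type subunit, was listed at 0 in WT_21591, WT_21592, WT_22062 and WT_22064 and at 9.94 and 13.8 CPM in the other 2 WT animals, while the tumours held 3.77 to 10.8 CPM. It overlaps Senp1 on the opposite strand and its zeros may be failed estimates, so no direction is read from it. Pfkfb3, which makes the activator of phosphofructokinase, was at 22, 46.1 and 95.3 CPM in tumours and 17.7, 21.4 and 31.6 CPM in WT and rose (1.29 ± 0.27, adjusted p = 0.000127).

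Among the lower enzymes, Aldoa (aldolase) ranged over 119, 173 and 251 CPM in tumours and 384, 629 and 773 CPM in WT. Its groups did not overlap and the fall was -1.73 ± 0.17 (adjusted p = 8.2e-11). Tpi1, triosephosphate isomerase, ranged over 35.9, 51.3 and 95.7 CPM in tumours and 98.1, 145 and 215 CPM in WT, again without overlap (-1.41 ± 0.18, adjusted p = 4.9e-08). Pgam1, phosphoglycerate mutase, fell by 1.24 on the log2 scale without overlap (adjusted p = 9.9e-08). Gapdh (-0.86), Gpi1 (-0.57) and Pkm (-0.40), the steps at glyceraldehyde phosphate, at glucose phosphate and at the end of the pathway, were called lower with overlapping ranges. Pgk1 was not called (-0.47, interval -0.90 to -0.03, adjusted p = 0.0843). Gapdh has 104 near-identical copies in the table that held 29.8% to 69.5% of the family's counts in an animal, so its level is uncertain. Aldoa shares bases with Fam57b on the opposite strand, so reads of these genes may not be separable. Other members, among them Hk1, Hk2, Pfkfb3 and Pfkp, also share bases with genes on the opposite strand.

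Of the 4 genes of pyruvate fate, 3 fell (75%, against 21.9% of all genes) and 1 rose (25%, against 24.3%). Ldha, the lactate dehydrogenase subunit that favours lactate, was at 69, 160 and 385 CPM in tumours and 73.1, 94 and 159 CPM in WT and rose (0.93 ± 0.24, adjusted p = 0.00147), with overlapping ranges. Ldhb, the other subunit, was at 42.2, 144 and 222 CPM against 236, 336 and 536 CPM and fell without overlap (-1.21 ± 0.21, adjusted p = 7.8e-06). Pdk1 and Pdk3, kinases that shut pyruvate dehydrogenase, fell by 1.25 (no overlap) and 0.43 on the log2 scale. The call of Pdk3 was lost with RLE scaling (adjusted p = 0.167).

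**Figure D2:**
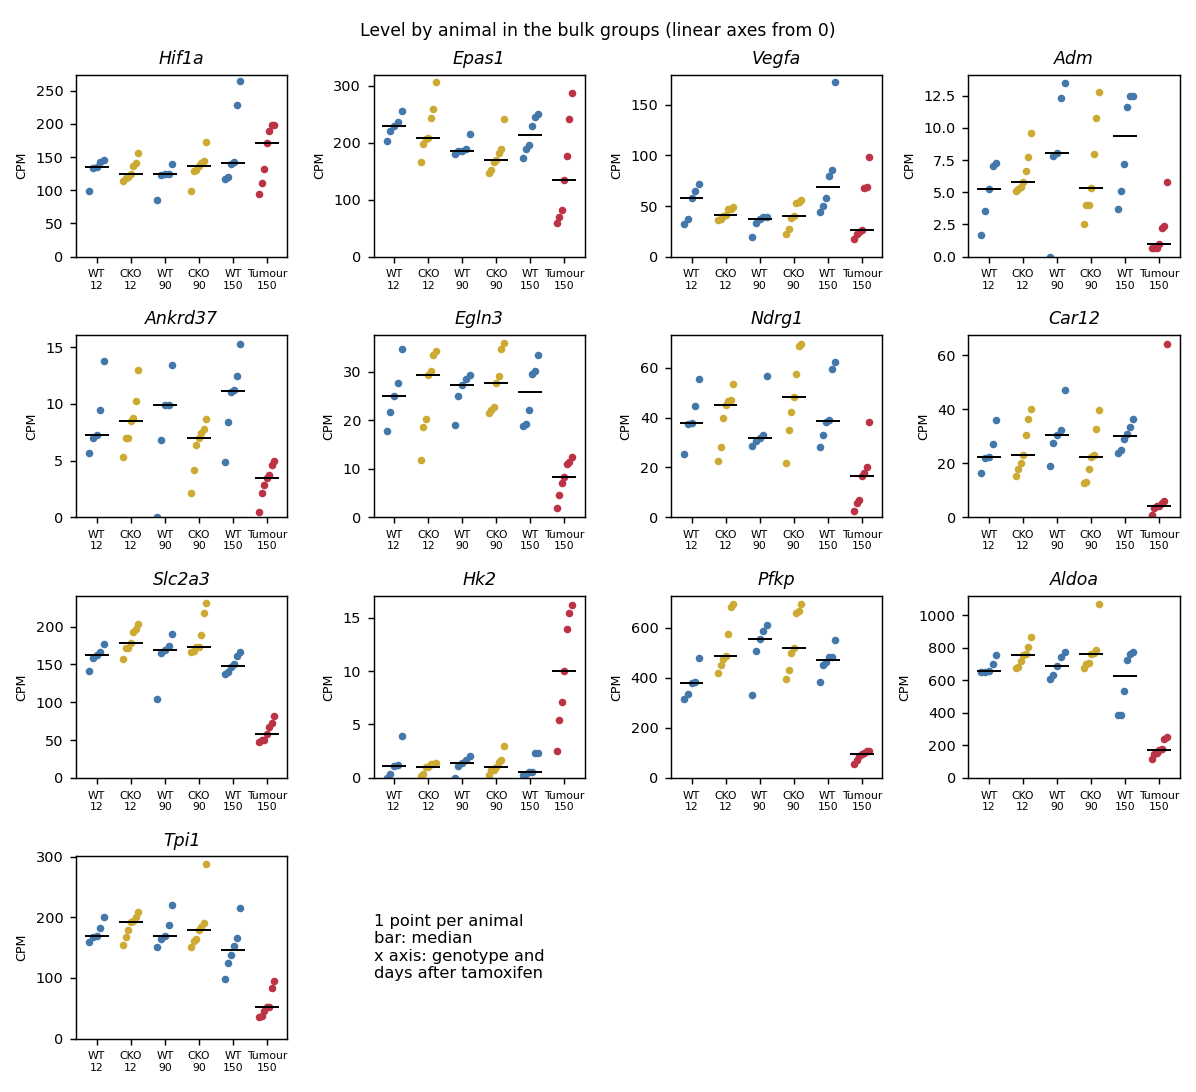
CPM of 13 members (panels) in each of the 37 animals (points, x axis: genotype and days after tamoxifen), with the group median as a bar and linear axes from 0. Pfkp, Aldoa, Slc2a3, Tpi1 and Egln3 are lower in every tumour than in every WT animal at 150 dpi, Hk2 is higher, and Car12 is high in 1 tumour (64.2 CPM).

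Of the 25 calls against WT, 17 were kept in each of the 44 alternatives run for a gene, which leave out each of the 37 animals in turn or change 1 choice of the fit. These were Hk2, Pfkfb3, Slc16a1 and Ldha (4 of 5 higher) and 13 of 20 lower. The lower calls lost in at least 1 alternative were those of Gapdh, Gpi1, Pkm, Pdk3, Bnip3l, Car12 and Vegfa.

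Against CKO tissue at 90 dpi, the same genotype before tumours, the tumours again had 20 members lower (58.8%, against 22.6% of all genes) and 5 higher (14.7%, against 26.4% of all genes). Both comparisons use the same tumours. The median was -0.78 over members and 0.12 over all genes, and 11 members (32.4%) did not overlap, against 17.2% of all genes. Markers of other cells changed in this comparison too. All 12 neuron markers fell (median -3.54) and 13 of 14 microglia and macrophage markers rose (92.9%). Of 12 oligodendrocyte markers 8 fell (66.7%), and of 16 OPC markers 13 rose (81.2%). Of 12 astrocyte markers 5 rose (41.7%) and 4 fell (33.3%). Of 10 endothelial markers 2 rose (20%) and none fell, and of 7 pericyte markers 2 rose (28.6%) and 1 fell (14.3%). These shares of rises were near the 26.4% of all genes. The part of these cells in the members' changes was not tested. With RLE scaling 17 were lower and 6 higher, and the share of higher genes among all calls went from 53.8% to 63.5%. The largest falls were Pfkp (-2.66), Aldoa (-2.12), Adm (-1.77), Egln3 (-1.76) and Tpi1 (-1.72). The rises were Hk2 (2.95), Slc16a3 (1.26), Slc16a1 (0.99), Pfkfb3 (0.97) and Ldha (0.69).

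Some members stood differently against the 2 references. Egln1 was not called against CKO tissue at 90 dpi, where it was at 59.4, 82.7 and 100 CPM. Its median was 88.1 CPM in WT at 90 dpi and 67.4 CPM in WT at 150 dpi, against 89 CPM in tumours. Vegfa was at 22.3, 40.1 and 56.3 CPM in CKO tissue at 90 dpi and was not called against it (0.14, adjusted p = 0.743), with a sign that turned without Tumor_16713 or Tumor_21256. Slc16a3 was at 0.246, 0.768 and 1.28 CPM there, and its call (adjusted p = 0.0386) was lost with the deepest library of each animal (0.129), with no filter (0.0865) and when any of 6 animals was left out. P4ha2 was called lower (-1.17, adjusted p = 0.0331), with CKO_20647 at 42.8 CPM and the other 6 at 1.72 to 10.4 CPM. Without CKO_20647 the difference was -0.42 (adjusted p = 0.396). The call was lost when any of 8 animals was left out, with DESeq2 (0.0659) and with RLE scaling (0.0819). It was also lost with the deepest library of each animal (0.287) and with the compared groups alone (0.167). P4ha1 was called lower too, a call lost in the same 4 settings and when any of 8 animals was left out. Car12 was not called (-0.96) but was at -2.61 and called without Tumor_16713. Ldha and Ankrd37 lost their calls with the compared groups alone (0.0805 and 0.0982).

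The design allows the genotype effect at 150 dpi, tumours against WT, to be tested against the effect at 90 dpi, CKO against WT. The signed log2 effect shifted upward for 4 members (11.8%, against 14.2% of all genes) and downward for 13 (38.2%, against 15.8% of all genes). None of these 17 was called in CKO against WT at 90 dpi, and Pfkp, for one, went from 0.08 at 90 dpi to -2.36 at 150 dpi. The upward shifts were Hk2 (3.40), Pfkfb3 (1.21), Ldha (0.92) and Egln1 (0.58). The 5 largest downward shifts were Pfkp (-2.44), Ndrg1 (-1.94), Aldoa (-1.91), Egln3 (-1.68) and Tpi1 (-1.49). With RLE scaling 5 shifted upward and 11 downward, and the share of upward shifts among all calls went from 47.2% to 57.3%. Without the filter on low counts, or without CKO_22146 or WT_22062, only 2 members shifted upward, and the calls of Egln1 and Ldha were the ones lost. The tumour samples differ from the CKO samples in both stage and age, which cannot be told apart.

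In ratios of related genes within an animal the library scaling cancels, apart from the prior count of 2 added to each gene. For 11 pairs the log2 ratio was compared by a 2-sided exact permutation test over animals, against WT at 150 dpi and against CKO at 90 dpi, with p-values adjusted over all 22 tests, of which 10 passed. The level of a ratio also reflects how well each gene is captured, so only differences are read. The Hk2/Hk1 log2 ratio was 3.91 higher in tumours than in WT (adjusted p = 0.00214) and 3.70 higher than in CKO tissue. Hk2 was at only 0.284 to 2.32 CPM in WT at 150 dpi, where the prior count and the depth can alter the size of this difference. The Ldha/Ldhb ratio was -1.06 to 2.21 in the 7 tumours and -2.10 to -1.37 in the WT animals, a difference of 2.13 (adjusted p = 0.00285), and 2.06 above CKO tissue. Tumor_16713 and Tumor_21349 had the highest values (2.21 and 1.43) and Tumor_21256 the lowest (-1.06). The Egln3/Egln1 ratio differed by -2.19 from WT (adjusted p = 0.00285) and by -2.17 from CKO tissue. In these pairs the groups did not overlap in either comparison.

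The Slc2a1/Slc2a3 ratio was 1.23 higher than in CKO tissue (adjusted p = 0.00285), while against WT the difference of 0.84 was not called (0.0888). The other 3 ratios that passed contain Pfkm, listed at 0 in several animals, and are not read. Epas1/Hif1a did not pass in either comparison, but spread over -1.53 to 0.87 in tumours, with Tumor_16839, Tumor_16840 and Tumor_21349 between -1.53 and -1.21 and the other 4 tumours between 0.52 and 0.87. In CKO tissue at 90 dpi it was 0.07 to 0.81.

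**Figure D3:**
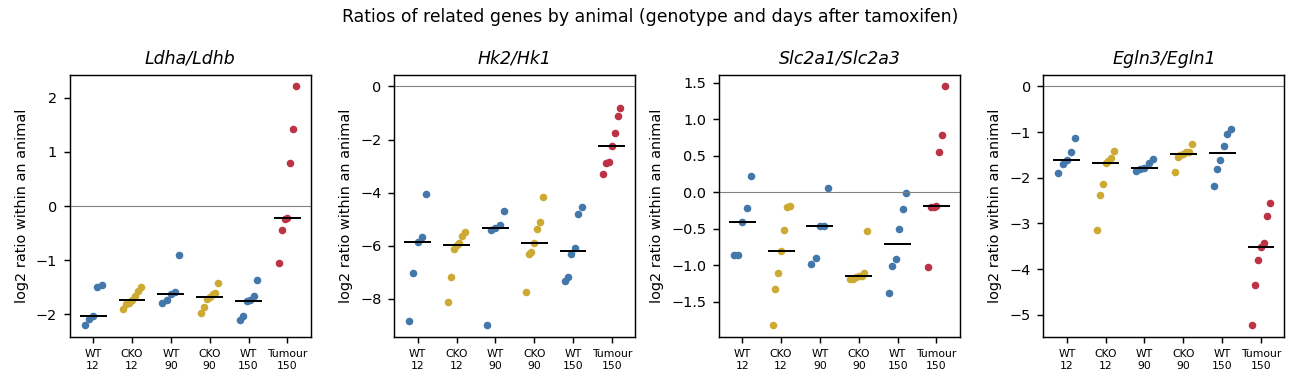
Log2 ratio of 2 related genes within each of the 37 animals (points, with the group median as a bar) for 4 pairs, by genotype and days after tamoxifen. Tumours lie above all WT animals at 150 dpi for Ldha/Ldhb and Hk2/Hk1 (differences 2.13 and 3.91) and below them for Egln3/Egln1 (-2.19).

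Genes of the same pathways outside the set were counted in the comparison with WT at 150 dpi, where 24.3% of all genes rose and 21.9% fell. Of 29 other hypoxia-induced genes tested, 13 rose (44.8%) and 6 fell (20.7%, near that of all genes; median 0.67), and their summed level overlapped (1385 to 1909 CPM in tumours, 1464 to 1932 CPM in WT). The largest rises were Lox, a collagen crosslinking enzyme (5.32), Cxcr4, a chemokine receptor (3.55), and Stc2, a secreted glycoprotein (3.38). The largest falls were Bhlhe40, a transcriptional repressor (-1.75), Higd1a of the mitochondria (-1.58) and Ddit4, an inhibitor of mTORC1 signalling (-1.08). Of 15 HIF regulators 1 rose (6.67%), Arnt2, a partner subunit (0.63), and 5 fell (33.3%), led by Cited2, which competes with HIF for its coactivator (-1.76), and by the coactivator gene Crebbp (-0.70).

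Of 34 other glycolysis and pyruvate genes, 8 rose (23.5%, near the 24.3% of all genes) and 11 fell (32.4%, against 21.9%; median 0.30). Eno2, the neuronal enolase, fell most (-3.81), from a median of 692 to 30.9 CPM. It is itself a neuron gene, and the part of neuronal RNA in its change was not tested. Pfkfb1 (2.16), Pgm1 (1.60) and Eno3 (1.21) rose most. Of 7 pentose phosphate genes, the branch that makes NADPH and ribose, 5 rose (71.4%) and none fell (median 0.72). Pgd (1.56), Pgls (1.12) and G6pdx (1.08) led the rise. Their summed level was 216 to 408 CPM in tumours and 178 to 207 CPM in WT, with no overlap. These lists were compiled with earlier results of the same data known.

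**Figure D4:**
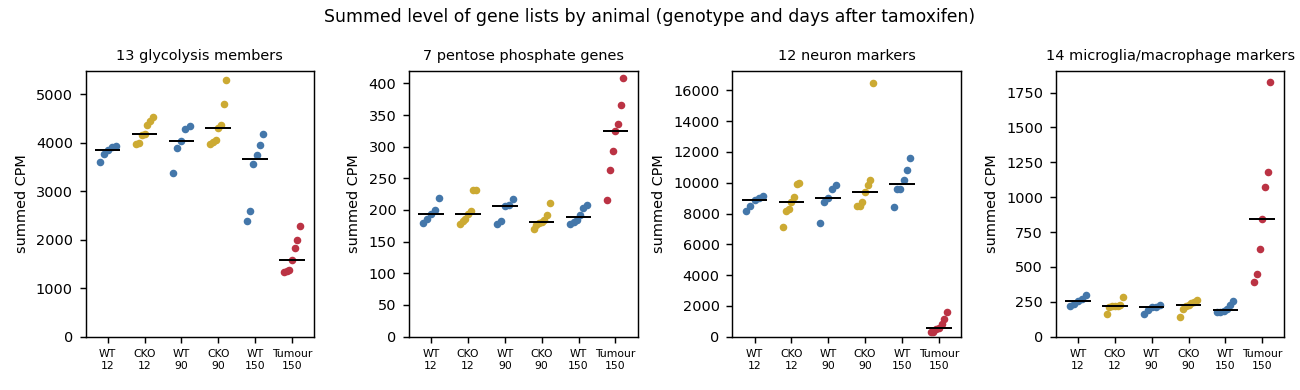
Summed CPM of the 13 enzymes of the set, 7 pentose phosphate genes, 12 neuron markers and 14 microglia and macrophage markers in each of the 37 animals (points, with the group median as a bar). Tumours lie below all WT animals at 150 dpi for the enzymes (at most 2285 against at least 2387 CPM) and for neuron markers, and above them for the other 2 lists.

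Before tumours, no member was called in any bulk comparison. In CKO against WT tissue at 12 dpi edgeR called 0 of 34 members, as did DESeq2, against 0.0183% of all genes in edgeR. Its unadjusted p was under 0.05 for 3 members and for 793 of 16349 genes. The members with the smallest p were Pfkp, at 417, 486 and 694 CPM in CKO and 316, 378 and 478 CPM in WT (0.54, adjusted p = 0.677), and Pkm, at 300, 327 and 408 against 240, 255 and 262 CPM, whose ranges did not overlap (0.35, adjusted p = 0.997). With only these groups in the fit 1 member passed, Pfkp (0.56, adjusted p = 0.0249). At 90 dpi 0 members were called (0 in DESeq2), against 0.0489% of all genes. The unadjusted p was under 0.05 for 0 members and for 850 of 16349 genes. The members' median log2 change was 0.10 against 0.04 over all genes. The range over members was -0.70 (Adm) to 0.64 (Slc16a3).

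Over time the members also gave no call. In CKO tissue from 12 to 90 dpi, 0 members and 0% of all genes were called. At an unadjusted p under 0.05 were 2 members and 696 of 16349 genes. In WT tissue from 12 to 90 dpi, 0 members were called against 0.00612% of all genes (unadjusted, 4 members and 795 of 16349 genes). Pfkp passed when only these groups were fitted (0.55, adjusted p = 0.0341). From 90 to 150 dpi in WT tissue, 0 members were called against 0.0183% of all genes (unadjusted, 5 members and 1350 of 16349 genes). DESeq2 called 0 members in each of these. In the last comparison Slc16a3 (1.88) and Vegfa (1.16) had the largest positive differences, both at an adjusted p of 0.517, and Vegfa did not overlap (19 to 39.1 CPM at 90 dpi, 44.1 to 172 CPM at 150 dpi). These WT animals at 150 dpi are the reference for the tumours.

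The small libraries show which members can be seen in 10 cells. Gapdh, Pkm, Gpi1, Pgk1, Pgam1, Aldoa and Ldhb were detected in all 112 10-cell libraries. Hk2 was detected in 4 of 56 10-cell libraries at 12 dpi and 11 of 56 at 90 dpi, and in 4 and 6 of 40 pool-and-split libraries. Slc16a1 was detected in 6 and 3 of 56, and Car9 in 3 and 7 of 56. Pfkm had no count in any of the 112 and 80 small libraries. The 10-cell libraries at 90 dpi detected more genes in all (median 10109.5) than those at 12 dpi (7550), so shares of detected libraries are not compared between times.

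For changes over time the counts were summed per set, the libraries that share a time, a sex and a label number, 4 sets at each time. In the 10-cell sets 0 of 32 members were called, as were 0% of all genes in edgeR, with 0 members in DESeq2. At an unadjusted p under 0.05 in edgeR were 3 members and 1034 of 14500 genes. Aldoa was at 1522, 3939, 1879 and 2963 CPM in the sets at 12 dpi and 1407, 1577, 1730 and 1062 CPM at 90 dpi (-0.83 ± 0.30, adjusted p = 0.664). In the pool-and-split sets 0 of 31 members and 0% of all genes were called in edgeR (unadjusted, 5 members and 1050 of 13408 genes). DESeq2 called 2 members, Bnip3 and Slc16a3. The share of all genes that DESeq2 called is not given here, so no result about the members is read from these calls. Slc16a3 was at 0, 0, 0.022 and 0 CPM at 12 dpi and 1.03, 0.616, 15.0 and 0.553 CPM at 90 dpi. In the 10-cell sets of the same times it was at 0.237, 0.974, 0.522 and 0 CPM against 0.0951, 1.53, 2.47 and 0.383 CPM, which overlapped.

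Spread between 10-cell libraries beyond that of pool-and-split libraries may reflect cells that differ in these genes. It was tested for the 26 members detected in 50% or more of the small libraries, as the difference in absolute deviation on the log2(CPM + 1) scale. Each library was a replicate in this test, although libraries of 1 set may come from 1 animal. Its p-values therefore do not measure the spread between sets. At 12 dpi 22 of 26 differences were positive (84.6%, against 65.4% of all genes) with a median of 0.37 against 0.14 over all genes. None was called larger (0.124% of all genes were) or smaller (0.0112% were). At an unadjusted p under 0.05 in limma were 5 members and 1013 of 8889 genes. The largest were Pfkp (0.98, adjusted p = 0.324) and Slc2a1 (0.82). At 90 dpi 9 of 26 were positive (34.6%, against 41.1% of all genes), with a median of -0.17 against -0.08. Again none was called larger (0.0112% of all genes) or smaller (0.0225%), with 4 members and 901 of 8889 genes unadjusted. Epas1 went from 0.61 at 12 dpi to -1.01 at 90 dpi, and Bnip3 was positive at both (0.66 and 0.96). The difference between the times was not tested. At 12 dpi the 10-cell libraries detected fewer genes than the pool-and-split libraries (median 7550 against 8690.5). At 90 dpi the 10-cell libraries detected more (10109.5 against 8739). The part of detection in the spread was not tested.

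**Figure D5:**
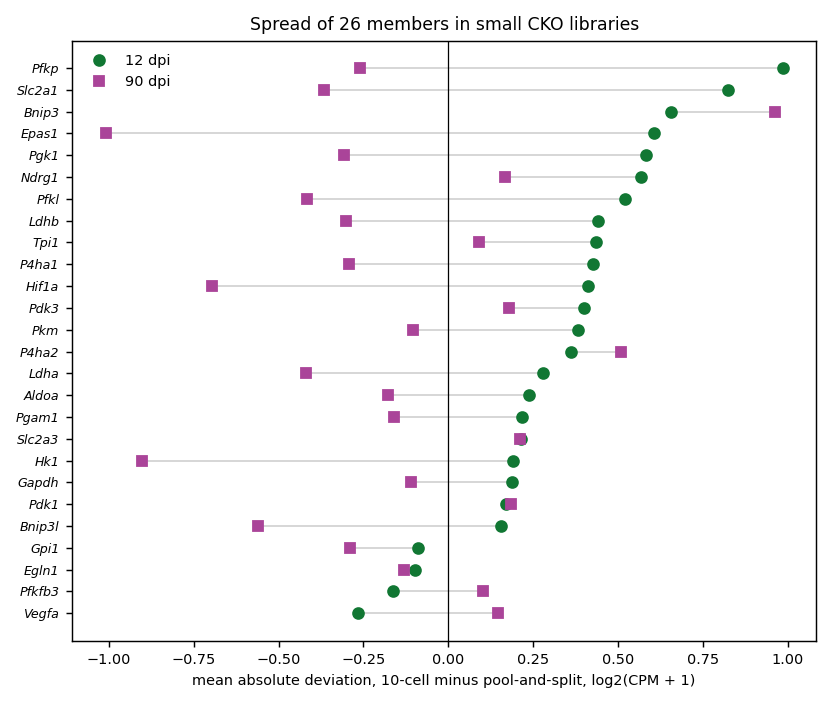
Difference in mean absolute deviation between 10-cell and pool-and-split libraries, on the log2(CPM + 1) scale, for the 26 tested members (rows) at 12 dpi (green circles) and 90 dpi (purple squares). At 12 dpi 22 of 26 members lie above 0 and at 90 dpi 9 do, and none was called at either time.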

How the data were processed

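The authors deposited expected counts per gene, estimated with RSEM and Bowtie2 on GRCm38 per the submitters' processing notes, for 240 libraries, neither scaled nor pooled in the table. RNA was amplified by T7 transcription (bulk) or PCR (small libraries), per the labels' protocols. Expected counts were rounded, and 11 animals with 2 libraries had these summed. All 7 tumours had 2 libraries and every WT animal had 1. In the summed counts, the number of libraries therefore cannot be told apart from tumour against WT. Members and gene lists were chosen with earlier results of these data known. Genes passing filterByExpr (minimum count 10, total 15) were scaled by TMM and tested in edgeR 4.0.16 (R 4.3.3) by quasi-likelihood F test, all 37 animals in 1 fit with sex as a covariate. CPM use TMM-scaled totals. DESeq2 1.42.0, RLE factors, no filter, the deepest library per animal, no sex covariate, the compared groups alone and each animal left out were alternatives. A further one, adding near-identical copies (95% identity over 50% of the length) to a member, and leaving out animals outside a contrast, were chosen after seeing the data. Spread used limma 3.58.1 on log2(CPM + 1) for genes detected in 50% of small libraries, with each library as a replicate. Other pseudocounts, detection limits and scaling and a test by set were its alternatives. Ratios use log2 CPM with a prior count of 2. Scripts were tested on simulated data. Values by animal are given for Hif1a, Epas1, Vegfa and the 10 called members with the largest log2 change in tumours against WT, and for others of interest by role. In other comparisons each called member is named, or the 5 largest rises and falls where more than 10 were called, and up to 3 rises and falls in other lists. Small libraries had 1.639 M to 6.489 M counts. The labels do not say whether a set is 1 animal, so set p-values measure the spread between sets, which may be technical. Intervals are approximate 95% intervals of the mean log2 difference, with the SE worked back from the F statistic and the animal as the replicate.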

Additional observations from a re-analysis of the deposited data

Results flagged for a closer look

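In each bulk group the highest or lowest animal was compared with the others, gene by gene, and 22 of 204 groups held an animal whose gap to the rest took up most of the group's range. Chance alone marks about 1 in 20 groups, and several of these marks come from the same animals. CKO_20647 at 90 dpi was the highest for Aldoa (1072 CPM), Tpi1 (287.8 CPM), Bnip3 (113.2 CPM) and P4ha2 (42.8 CPM), beside the highest neuron marker sum of its group. WT_21167, the shallowest library, was the lowest at 90 dpi for Slc16a1 (9.479 CPM), Slc2a3 (104.3 CPM), Bnip3 (0 CPM) and P4ha2 (0 CPM) and the highest for Pkm (341.2 CPM). Among the tumours, Tumor_16713 was apart for Car12 (64.25 CPM) and P4ha2 (16.14 CPM), and Tumor_21349 for Adm (5.831 CPM). In WT at 150 dpi, WT_21592 was apart for Vegfa (172.3 CPM) and WT_21593 for P4ha2 (7.466 CPM). WT_22184 at 90 dpi was the highest for Epas1 (215.5 CPM) and Ndrg1 (56.67 CPM). The remaining animals were CKO_22149 at 90 dpi, lowest for Ldha (101 CPM), and 5 at 12 dpi: CKO_22210, lowest for Gapdh (594.6 CPM), CKO_21725, highest for Pfkm (43.48 CPM), CKO_22364, highest for Pkm (408 CPM), WT_22180, lowest for Pfkl (29.46 CPM), and WT_22178, lowest for Hif1a (98.86 CPM).

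For 17 members the genotype effect at 150 dpi differed from that at 90 dpi in edgeR's test of the difference itself. The signed log2 effect shifted upward for Hk2 (by 3.395), Pfkfb3 (1.208), Ldha (0.9178) and Egln1 (0.5824). It shifted downward, to a fall in tumours from no call at 90 dpi, for Pfkp (-2.44), Ndrg1 (-1.94), Aldoa (-1.909), Egln3 (-1.676), Tpi1 (-1.487), Slc2a3 (-1.484), Ldhb (-1.327), Bnip3 (-1.287), Pgam1 (-1.21), Gapdh (-1.097), Pdk1 (-1), Hk1 (-0.8408) and Pkm (-0.689).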

How the results depend on the processing

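With only the compared groups in the fit, 13 members were lower in tumours than in WT (20 with all animals) and 3 were higher than in CKO tissue at 90 dpi (5). That fit also called 1 member between CKO and WT at 12 dpi and 1 between WT at 90 and 12 dpi (0 and 0). Without the filter, 2 members had a genotype effect shifted upward at 150 dpi (4), and leaving out each animal gave 2 to 5. DESeq2 called 2 members between the pool-and-split sets (0 in edgeR). The share of all genes called in each of these fits is not given here. Changes in the number of calls are therefore not read as particular to the members. Signs that turned were all of members that were not called. With DESeq2 and with RLE scaling, the change against WT became 0.051 and 0.049 for Hif1a, 0.014 and 0.019 for P4ha1, and 0.16 and 0.15 for P4ha2, and the genotype effect became 0.11 and 0.087 for P4ha1 and 0.13 and 0.13 for Slc2a1. With the deepest library of each animal, Slc16a3 against WT became -0.056, the genotype effect of P4ha1 0.0022 and of P4ha2 0.0015, and against CKO tissue the Slc16a3/Slc16a1 ratio became -0.39 and the Pfkl/Pfkm ratio 0.20. With the compared groups alone, Slc16a3 became -0.16 and the genotype effect of Slc2a1 0.014. Leaving out each animal gave -0.15 to 0.071 for Hif1a, -0.25 to 0.074 for P4ha1, -0.71 to 0.17 for P4ha2 and -0.19 to 0.27 for Slc16a3 against WT, and -0.14 to 0.33 for Vegfa against CKO tissue. For the genotype effect it gave -0.19 to 0.15 for P4ha1, -1.18 to 0.14 for P4ha2, -0.23 to 0.19 for Slc2a1 and -0.18 to 1.37 for Pfkm. For ratios against CKO tissue it gave -0.24 to 0.29 for Slc16a3/Slc16a1 and -1.04 to 0.083 for Pfkl/Pfkm. The cause was not tested. With sex and set number as a replicate block, 0 members were called in either kind of small library. The deviations of sets with the same number correlated at -0.034 to 0.018. Technical spread between sets can also keep such correlations low, so these values do not show whether the numbers pair the sets. Adm, Car9, Hk2 and Slc16a3 lie at a few CPM, where the depth of the shallow libraries limits what can be seen.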
